A study of Danio rerio with 2 samples.

Results

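The T-box genes that act in the developing heart were followed in heart RNA of zebrafish (Danio rerio) of the AB strain background, taken 48 hours after fertilization. The set was chosen by gene name in the authors' table of Ensembl genes. Of 8 names looked for, 7 were found, among 26126 listed genes: tbx5a, tbx5b, tbx20, tbx1, tbx2a, tbx2b and tbx3a. The eighth, tbx3b, stands in that table under a clone name and is described separately. The series holds 1 library from hearts of kctd10 -/- mutants and 1 library from wild-type hearts of the same stage and background. kctd10 encodes an adaptor of the Cullin 3 ubiquitin ligase. Neither the mutant allele nor the number of hearts pooled is stated in the labels.

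T-box genes encode transcription factors that share a DNA-binding domain, the T-box. In the vertebrate heart Tbx5 and Tbx20 act with Nkx2.5 and Gata4 in the beating chambers, where Tbx5 activates genes such as that for atrial natriuretic peptide. Tbx2 and Tbx3 repress the chamber programme in the canal between atrium and ventricle, and Tbx1 acts in the pharynx and in the progenitors that build the outflow tract. In zebrafish, loss of tbx5a (heartstrings) disturbs heart looping and removes the pectoral fins, and loss of tbx1 (van gogh) disturbs the pharyngeal arches. The study set messenger RNA levels of mutant hearts against those of wild-type hearts. Counts measure transcripts and say nothing of the activity of the proteins.

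Counts over all genes added up to 139099775 in the library labelled mutant and 150001992 in the library labelled wild type. Every ratio below is mutant over wild type after scaling both libraries to effective sizes with TMM, and levels are given as CPM, the counts per 1000000 of that size. A 95% interval in parentheses is an exact counting interval. It covers counting error alone, and reads copied by PCR are not independent molecules. With 1 library per genotype there is no replicate error and no test, so a gene was called higher or lower only by a rule of size, where the whole interval lay beyond 1.5-fold and both counts summed to at least 10. In bulk tissue, more cells of a type and more RNA per cell cannot be told apart. The mutated gene itself, kctd10, had 19942 counts in the library labelled mutant and 8226 in the library labelled wild type, a ratio of 2.57 (2.503 to 2.64), opposite in direction to a loss of the transcript. Since a mutated gene can still be transcribed, this count does not check the labels, and all ratios set the libraries against each other as they are labelled. The defining heart genes were abundant in both, with 252712 counts of the cardiac myosin light chain gene myl7 in the library labelled mutant and 194884 in the library labelled wild type. Larval skin genes had a higher summed level than cardiac sarcomere genes in both libraries, as given below. These sums were not divided by transcript length and do not measure tissue content.

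Of the 7 cardiac T-box genes 1, tbx5a, was called higher and 0 were called lower. Over all 24009 genes with at least 10 counts, 6.03% were called higher and 6.66% lower. By TMM scaling the ratio lay above 1 for 6 of the 7 genes, against 50.1% of all genes. The median log2 ratio of the 7 was 0.46, against 0.00084 over all genes. When scaled to cardiac sarcomere genes, 4 of the 7 lay above 1. Their median was then 0.06, and that of all genes was −0.40. Of the 7, the genes linked to chambers or outflow had the higher ratios, and by TMM scaling those linked to the canal lay near 1. Outside the 7, tbx3b had a ratio of 0.373 from few counts. The longer lists below did not show this split. Their median log2 ratios were 0.48 for chamber genes, 0.41 for canal genes and −0.10 for genes of the Tbx1 pathway. Scaled to cardiac sarcomere genes, tbx2a, tbx2b and tbx3a had ratios of 0.851, 0.823 and 0.674. The order of ratios, which a scaling cannot change, runs tbx5a, tbx20, tbx1, tbx5b, tbx2a, tbx2b and tbx3a.

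**Figure D1:**
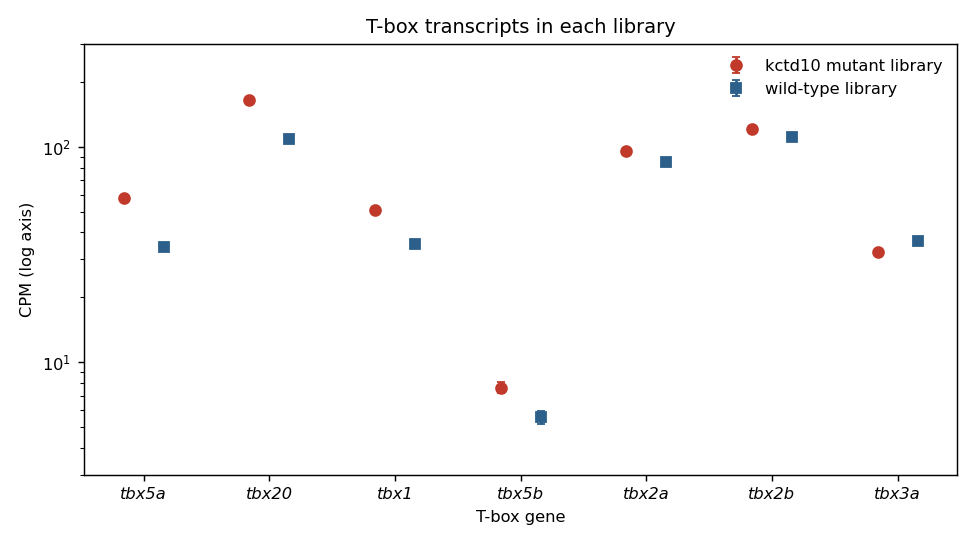
Level of each cardiac T-box transcript in CPM (log axis) in the library labelled kctd10 mutant (circles, left of each pair) and the library labelled wild type (squares, right), with exact 95% counting intervals that are mostly smaller than the symbols. The genes are ordered by ratio, from tbx5a (57.9 CPM in the library labelled mutant and 34.3 CPM in that labelled wild type) to tbx3a (32.3 CPM in the library labelled mutant and 36.4 CPM in that labelled wild type), and counts were not divided by transcript length, so heights are not compared between genes.

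The chamber regulator tbx5a (ENSDARG00000024894) had 8128 counts in the library labelled mutant and 5095 in the library labelled wild type. These are levels of 57.9 CPM in the library labelled mutant and 34.3 CPM in the library labelled wild type. The ratio was 1.69 (1.63 to 1.75), a log2 ratio of 0.76. Of the 14685 genes at 1000 counts or more, 4.33% had a higher ratio than tbx5a. In the authors' deposited table of Ensembl genes the fold of tbx5a was 1.68, with a p-value of 0.0608 and an adjusted p-value of 0.963, obtained by DESeq from 1 library per genotype. There 1.69% of the listed genes had an adjusted p-value under 0.05, and 0 of the 7 cardiac T-box genes did.

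The paralogue tbx5b (ENSDARG00000092060), which is also used in the zebrafish heart, had the fewest counts of the 7. It had 1070 counts in the library labelled mutant and 825 in the library labelled wild type, or 7.62 CPM in the library labelled mutant and 5.55 CPM in that labelled wild type. Its ratio was 1.37 (1.254 to 1.51), and it was not called. The ratio of tbx5a was 1.23 times that of tbx5b (counting interval 1.11 to 1.36), a comparison in which the scaling of the libraries cancels. Both tbx5 genes lay above 1 by more than counting error, except that under the cardiac sarcomere scaling described below the ratio of tbx5b was 1.04 with an interval of 0.951 to 1.14.

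tbx20 (ENSDARG00000005150), a regulator of chamber growth, was the most counted of the 7. It had 23083 counts in the library labelled mutant and 16166 in the library labelled wild type, or 164 CPM in the library labelled mutant and 109 CPM in that labelled wild type. The ratio of 1.51 (1.48 to 1.54) lay at the limit of the rule, and since the interval reached below 1.5 the gene was not called. It is the gene nearest outside the rule, and 6.50% of genes at 1000 counts or more had a higher ratio. The authors' deposited table of Ensembl genes gave it a fold of 1.51 and a p-value of 0.132. Scaled to library totals the ratio was 1.54 and the interval lay wholly above 1.5, so tbx20 then counts as higher.

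tbx1 (ENSDARG00000031891), the gene of the pharynx and outflow progenitors, had 7156 counts in the library labelled mutant and 5250 in the library labelled wild type. These are 50.99 CPM in the library labelled mutant and 35.3 CPM in that labelled wild type. The ratio was 1.44 (1.39 to 1.497), and its interval ended just below the limit. The ratio of tbx5a was 1.17 times that of tbx1 (1.11 to 1.23), and the ratio of tbx20 was 1.05 times that of tbx1 (1.01 to 1.09). The ratios of tbx1 and tbx5b did not differ beyond counting error, with a quotient of 1.05 (0.952 to 1.16).

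The canal repressors tbx2a and tbx2b had nearly the same ratio as each other. tbx2a (ENSDARG00000018025) had 13389 counts in the library labelled mutant and 12649 in the library labelled wild type, or 95.4 CPM in the library labelled mutant and 85.1 CPM in that labelled wild type. Its ratio was 1.12 (1.09 to 1.15). tbx2b (ENSDARG00000006120), needed in zebrafish for the atrioventricular canal, had 16890 counts in the library labelled mutant and 16491 in the library labelled wild type, or 120 CPM in the library labelled mutant and 111 CPM in that labelled wild type. Its ratio was 1.08 (1.06 to 1.11), and the quotient of both ratios, tbx2a over tbx2b, was 1.03 (1.0004 to 1.07). How reads that match several genes were counted is not stated in the labels, so the split of reads between close paralogues is uncertain. The ratio of tbx5a was 1.56 times that of tbx2b (1.49 to 1.62), and the ratio of tbx20 was 1.39 times that of tbx2b (1.35 to 1.44).

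tbx3a (ENSDARG00000002216), which belongs with Tbx2 among the repressors, was the 1 gene of the 7 with a ratio below 1. It had 4536 counts in the library labelled mutant and 5410 in the library labelled wild type, or 32.3 CPM in the library labelled mutant and 36.4 CPM in that labelled wild type. The ratio was 0.888 (0.854 to 0.924), and it was not called. In the RefSeq annotation of assembly GRCz12tu, which is not the build of these files, tbx3a is the next protein-coding gene to tbx5a. The ratio of tbx5a was 1.90 times that of this neighbour (1.80 to 2.01). On the other side of tbx5a stands ddx54, a helicase gene with a ratio of 1.201 (1.17 to 1.24). tbx2b is likewise next to tbx4, a T-box gene of the hindlimb in tetrapods, whose ratio was 0.908 (0.832 to 0.991).

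tbx3b is paired with the identifier ENSDARG00000061509 in a current table of gene names, and the authors' table calls that identifier BX927282.2. It had 19 counts in the library labelled mutant and 54 in the library labelled wild type, or 0.135 CPM in the library labelled mutant and 0.363 CPM in that labelled wild type. The ratio of 0.373 (0.209 to 0.639) was called lower. These are few counts beside those of tbx3a, whose ratio was 2.38 times as high (1.39 to 4.26).

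**Figure D2:**
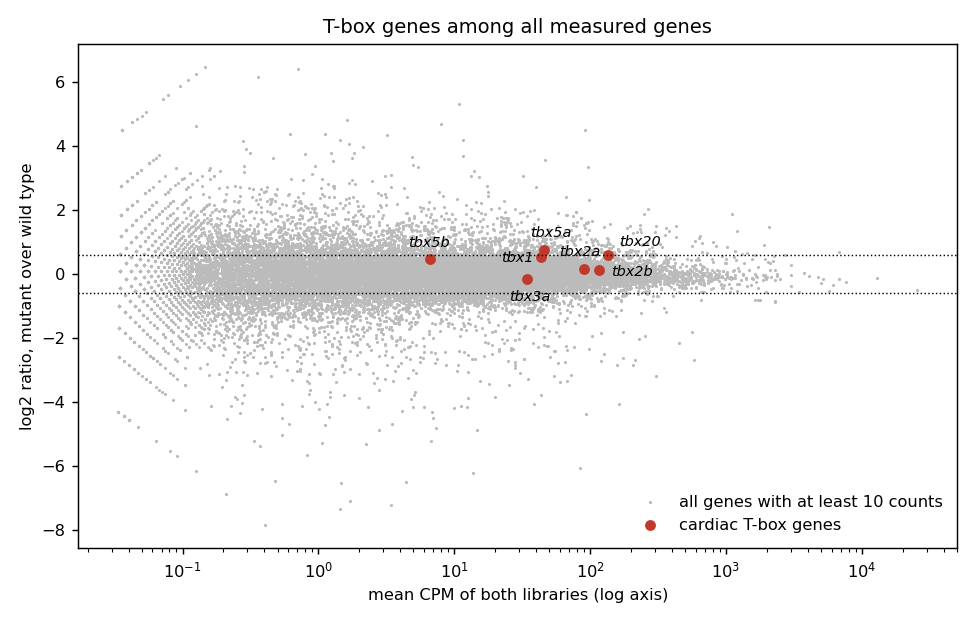
Log2 ratio of mutant over wild type against mean CPM (log axis) for all 24009 genes with at least 10 counts (grey) and for the 7 cardiac T-box genes (red, named), with dotted lines at 1.5-fold. tbx5a, at 0.76, lies above the upper line and tbx20, at 0.60, just above it by its point value, while tbx2a, tbx2b and tbx3a lie close to 0.

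The authors' deposited table of UniGene clusters gave much the same folds. Its folds, in a column named OE over CON below a heading on the kctd10 mutant compared to wild type, were 1.69 for tbx5a, 1.54 for tbx20, 1.47 for tbx1 and 1.36 for tbx5b. For tbx2a, tbx2b and the cluster named tbx3 they were 1.13, 1.1 and 0.9. For kctd10 the authors' deposited tables differed, with a fold of 2.56 among Ensembl genes and 1.4 among UniGene clusters.

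A change of scaling moved all of these ratios together. Scaled so that the median log2 ratio of 19 cardiac sarcomere genes is 0, every log2 ratio fell by 0.40, and the median of all genes was −0.40. Before this scaling the 19 log2 ratios ran from −3.28 to 1.17. Of the 19 ratios 15 lay above 1 and 4, those of ttna, ttnb, tcap and myoz2a, below. The size of the shift therefore depends on the genes listed, and whether all 19 stand for heart muscle alone was not tested. The ratio of tbx5a was then 1.28, and it was no longer called. Those of tbx20, tbx1 and tbx5b were 1.15, 1.096 and 1.04, while tbx2a, tbx2b and tbx3a had 0.851, 0.823 and 0.674. By this scaling 4 of the 7 genes lay above 1 and 3 below. Of all 24009 genes it called 666 higher and 4595 lower, against 1447 and 1600 by TMM scaling. Counts called in the lists below under the sarcomere scaling are to be read beside these. Since a scaling shifts every log2 ratio by the same amount, the order of the genes cannot change with it.

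**Figure D3:**
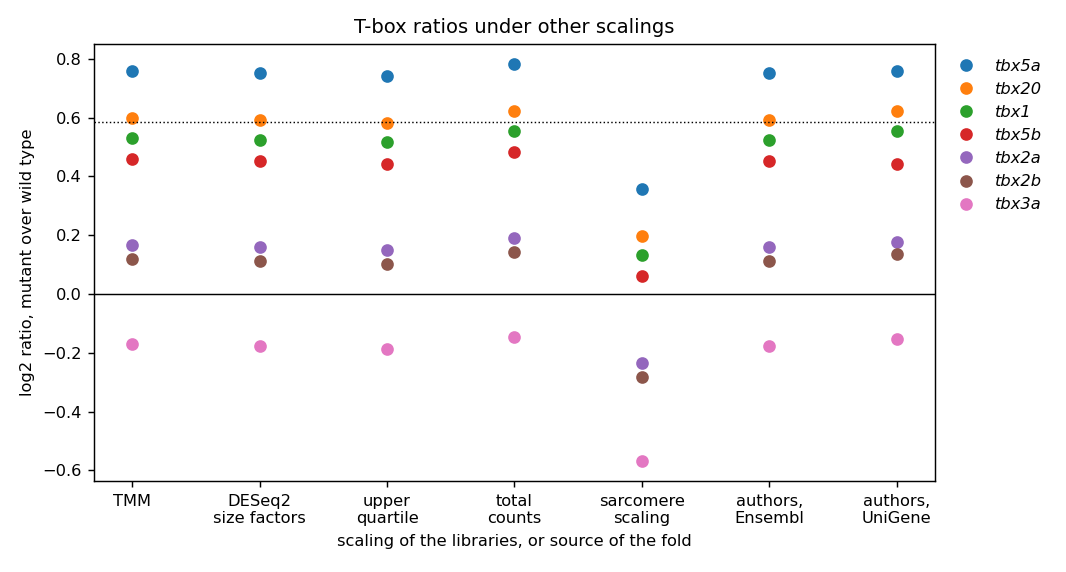
Log2 ratio of mutant over wild type for the 7 cardiac T-box genes (1 colour each) under 5 scalings of the libraries and in both deposited tables of the authors, with a dotted line at 1.5-fold. A scaling cannot change the order of the genes, which is also the same in both deposited tables, and the sarcomere scaling moves tbx2a and tbx2b below 0.

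Elsewhere in the T-box family the ratios spread more widely and had no common direction. Of 18 further T-box names 16 matched a gene and 15 of these had at least 10 counts, of which 1 was called higher, 2 lower and 12 neither. Their median log2 ratio was −0.06. By TMM scaling 6.03% of all 24009 genes with at least 10 counts were called higher and 6.66% lower. Counts called by TMM scaling in the lists below are also to be read beside these shares. Under the sarcomere scaling 0 of the 15 were called higher and 4 lower, beside 666 higher and 4595 lower of all 24009 genes. tbx21 then lost its call, and the median was −0.46. ntla (tbxta, the zebrafish brachyury gene of notochord and tailbud) had 18 counts in the library labelled mutant and 240 in the library labelled wild type, 12.6-fold lower (7.79 to 21.6). The authors' folds for ntla differed, at 0.079 among Ensembl genes and 0.16 among UniGene clusters. tbx15 had 1393 counts in the library labelled mutant and 3330 in that labelled wild type and was 2.26-fold lower (2.12 to 2.40). tbx21, known in mammals from T helper and natural killer cells, had 461 counts in the library labelled mutant and 252 in that labelled wild type, a ratio of 1.94 (1.66 to 2.27). The most counted of these genes, mgaa, which pairs a T-box with a Max-binding domain, had a ratio of 0.799, and tbx18, an epicardial gene, had 0.958 (0.888 to 1.03). The gene ntlb had 0 counts in the library labelled mutant and 8 in that labelled wild type and was too rarely counted for the rule.

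**Figure D4:**
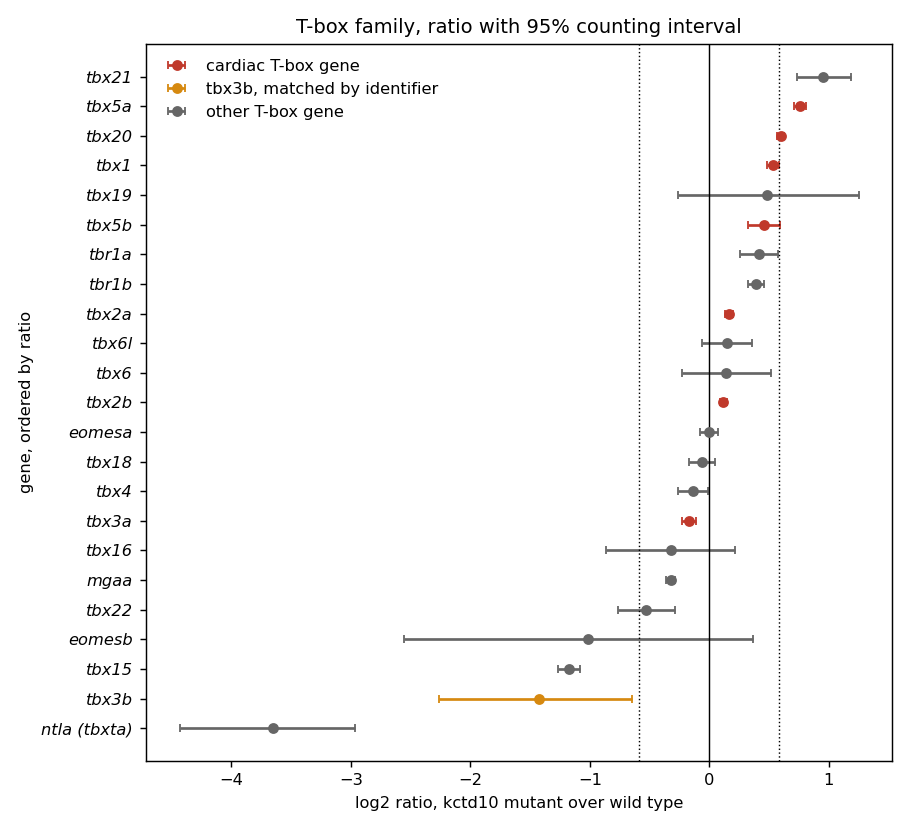
Log2 ratio of mutant over wild type with its exact 95% counting interval for the 7 cardiac T-box genes (red), tbx3b matched by identifier (orange) and 15 other T-box genes (grey), ordered from high to low, with dotted lines at 1.5-fold. tbx21 and tbx5a lie wholly to the right of the upper line, and tbx15, tbx3b and ntla wholly to the left of the lower line.

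Genes whose products work with T-box factors included several with higher ratios than any of the 7. Of 19 measured partner genes 5 were called higher, the mutated gene kctd10 among them, and 0 lower, with a median log2 ratio of 0.41. The sarcomere scaling left 3 called higher, kctd10 included and without nkx2.5 and nkx2.7, and gave 3 lower, with a median of 0.01. It called 666 of all 24009 genes higher and 4595 lower. Apart from kctd10 itself, the called genes were the cardiac regulators mef2cb (2.13), gata4 (2.05, 1.98 to 2.13), nkx2.7 (2.05) and nkx2.5 (1.97, 1.91 to 2.03). gata4 had 8316 counts in the library labelled mutant and 4287 in that labelled wild type. The ratio of tbx5a was 0.822 times that of gata4 (0.781 to 0.866) and 0.857 times that of nkx2.5 (0.818 to 0.897). hand2, a regulator of heart and fin, had a ratio of 1.16 (1.13 to 1.18), and the ratio of tbx5a was 1.46 times as high (1.40 to 1.52). The most counted partner, the chromatin remodeller gene chd4b, had a ratio of 0.969.

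Chamber genes linked to T-box factors held the natriuretic peptide genes among those called. Of 18 measured, 4 were called higher and 1 lower, with a median log2 ratio of 0.48, or 0.08 under the sarcomere scaling, which left both counts at 4 and 1. nppb and nppa, genes of natriuretic peptides secreted by cardiac muscle, had ratios of 2.89 (2.84 to 2.94) and 2.55 (2.53 to 2.57). The gene given here as nppb was matched by its current name, and the authors call its identifier BX323876.3. myh6, the atrial myosin gene, had 2.26, and hey2, a transcriptional repressor gene of the ventricle, had 2.19 (2.06 to 2.33). smyd1a, a muscle methyltransferase gene, was 5.39-fold lower. vmhc, the ventricular myosin gene, was the most counted, with 455687 counts in the library labelled mutant and 323839 in that labelled wild type and a ratio of 1.49. The ratio of tbx20 did not differ from that of vmhc beyond counting error (quotient 1.01, 0.994 to 1.04) and was 0.670 times that of myh6 (0.656 to 0.686). That of tbx5a was 1.13 times that of vmhc (1.09 to 1.17) and 0.749 times that of myh6 (0.722 to 0.777).

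The canal genes, where tbx2b acts, went both ways around tbx2a and tbx2b. Of 16 measured, 4 were called higher and 1 lower, with a median log2 ratio of 0.41. With the sarcomere scaling mycn and msx2b were not called, 2 were called higher and 1 lower, and the median was 0.01. vcana, which encodes versican, had a ratio of 10.04 (9.64 to 10.5), with 24458 counts in the library labelled mutant and 2581 in that labelled wild type. twist1b (2.18), msx2b (1.88, 1.80 to 1.96) and mycn (1.86, 1.82 to 1.90) were also called, and mycn is known in mouse as a gene that Tbx2 represses. The paralogue twist1a had a ratio of 0.867 (0.825 to 0.912) and was not called. bmp4, a signal upstream of Tbx2 in the canal, had a ratio of 1.48 (1.45 to 1.51) and has2, a hyaluronan synthase gene, 1.41, and neither was called. foxn4, which activates tbx2b in zebrafish, had a ratio of 0.965 (0.947 to 0.984), with 19819 counts in the library labelled mutant and 21757 in that labelled wild type. klf2a, a flow-responsive gene, was 2.03-fold lower (1.95 to 2.12). The most counted canal gene, alcama, had a ratio of 1.26.

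The genes of the Tbx1 pathway and of late-adding heart progenitors went both ways, with 8 of 24 ratios above 1 and 16 below. Of the 24, 4 were called higher and 3 lower, with a median log2 ratio of −0.10. The sarcomere scaling left 2 called higher, tcf21 and aldh1a2, and gave 8 lower, with a median of −0.50. The pharyngeal and epicardial gene tcf21 (2.79, 2.49 to 3.13), aldh1a2 (2.57), which makes retinoic acid, vegfaa (1.84) and fgf8a (1.61, 1.504 to 1.72) were called higher. The call of fgf8a was lost with DESeq2 size factors and with upper-quartile factors, each of which left 3 called higher. gbx2 was 2.14-fold lower, prdm1a 1.88-fold lower and isl1, a gene of these progenitors and of motor neurons, 1.78-fold lower. chd7, the most counted, had a ratio of 0.941.

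T-box genes of the heart are also used in other tissues, and markers of those tissues were counted in both libraries. tbx5a is expressed in the pectoral fin bud, and of 19 measured fin bud genes 0 were called higher and 7 lower, with 8 ratios above 1 and 11 below, a median log2 ratio of −0.33 and a summed level of 577 CPM in the library labelled mutant and 716 CPM in that labelled wild type. Both actinodin genes, and2 and and1, were 10.1-fold and 9.11-fold lower, and hoxd12a was 3.34-fold lower. The most counted fin bud gene, sall4, which is also among the partners, had a ratio of 1.52 (1.49 to 1.56) and was not called. tbx5a, tbx2a and tbx2b are also expressed in the dorsal retina, and of 18 retina genes 7 were called higher and 2 lower, with a median of 0.26. Under the sarcomere scaling 2 retina genes were called higher and 3 lower, with a median of −0.13. The summed level of the retina genes was 831 CPM in the library labelled mutant and 831 CPM in that labelled wild type. vax1, of the ventral eye and optic stalk, had a ratio of 1.92, and crx, a regulator of photoreceptor genes, and vsx1, of bipolar cells, were 10.3-fold and 6.89-fold lower. The part of these tissues in the T-box ratios was not tested.

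tbx20 is also known from cranial motor neurons. Of 14 motor neuron and neural genes 0 were called higher and 6 lower, with a median log2 ratio of −0.54 and a summed level of 1362 CPM in the library labelled mutant and 1881 CPM in that labelled wild type. The cholinergic genes chata and slc18a3a were 6.22-fold and 3.28-fold lower, and the proneural gene neurod was 2.45-fold lower. tbx1 is expressed in the ear, where of 14 otic genes 1, pax5, was called higher (1.73) and 0 lower, with a median of −0.22 and a summed level of 250 CPM in the library labelled mutant and 297 CPM in that labelled wild type. By TMM scaling 6.03% of all 24009 genes were called higher and 6.66% lower. Under the sarcomere scaling pax5 lost its call, and 0 otic genes were called higher and 4 lower, with a median of −0.62. Of all 24009 genes 4595 were called lower by that scaling. Of 12 pharyngeal and pronephric genes tcf21 was called higher and gcm2 lower (1.85-fold), with a median of 0.07 (−0.33 under the sarcomere scaling, with 1 called higher and 2 lower) and 252 CPM in the library labelled mutant and 232 CPM in that labelled wild type. The part of these tissues in the T-box ratios was not tested either.

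Skeletal muscle genes differed more between the libraries than any other list, by their median. Of 24 skeletal muscle genes 0 were called higher and 22 lower, with a median log2 ratio of −2.55 and a summed level of 1643 CPM in the library labelled mutant and 4628 CPM in that labelled wild type, led by myhz2 (66.95-fold lower). Of 19 cardiac sarcomere genes 7 were called higher, among them tnnc1a (1.78) and cmlc1 (1.63), and 2 lower, tcap and myoz2a, with a summed level of 14911 CPM in the library labelled mutant and 10276.5 CPM in that labelled wild type. Of the 19 ratios 15 lay above 1 and 4 below. tcap and myoz2a were 9.75-fold and 5.75-fold lower and stand among the genes whose median sets the sarcomere scaling. Of 10 skin genes 1 was called higher and 2 lower, with a median of −0.42. The summed level of the skin genes was 34323.5 CPM in the library labelled mutant and 47418.8 CPM in that labelled wild type. Both skin sums were above those of the cardiac sarcomere genes, without division by transcript length. The gene krt4 alone had 21199.7 CPM in the library labelled mutant and 30270.7 CPM in that labelled wild type. Of 11 blood genes 3 were called higher and 0 lower, with a median of 0.19. By TMM scaling 6.03% of all 24009 genes were called higher and 6.66% lower. Under the sarcomere scaling 1 cardiac sarcomere gene was called higher and 3 lower, 1 skin gene higher and 6 lower, and 1 blood gene higher and 0 lower, and the blood median was −0.21. No gene of these marker lists was at 0 in either library, and how these tissues bear on the T-box ratios was not tested.

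**Figure D5:**
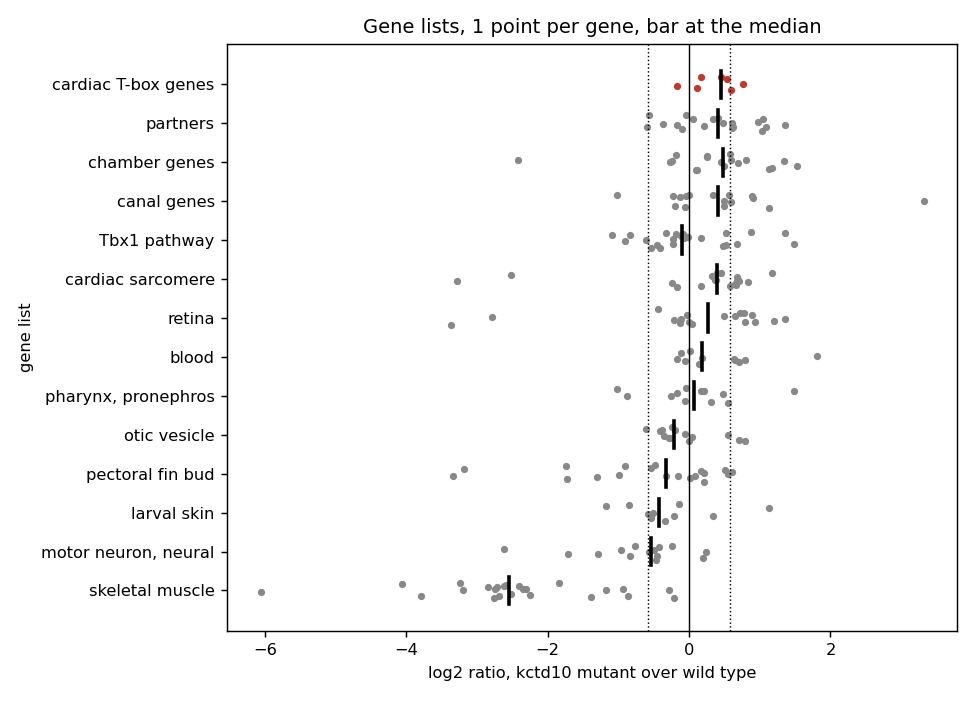
Log2 ratio of mutant over wild type for each gene (points) of the cardiac T-box set (red) and of 13 lists (grey), with a bar at each median and dotted lines at 1.5-fold. The medians of the cardiac T-box genes, partners, chamber, canal and cardiac sarcomere genes lie between 0.40 and 0.48, and that of skeletal muscle genes lies at −2.55.

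The list genes outside the family with the ratio nearest to that of tbx5a came from other tissues. By the absolute difference of log2 ratio over 2 libraries, they were vax2 (a ratio of 1.71, difference 0.02), a gene of the ventral retina, lyz (1.72, difference 0.03), a lysozyme gene of myeloid cells, and six3b (1.73, difference 0.03), a gene of eye and forebrain. Heart genes lay close as well, with gja5b (1.75, 1.36 to 2.26) of the chamber list, and the cardiac sarcomere genes cmlc1 (1.63) and tnnc1a (1.78) on either side of tbx5a. The counting interval of vax2 (1.499 to 1.96) takes in all of these ratios, so the order among them is uncertain. With 2 libraries a pattern is no more than 1 ratio per gene.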

How the data were processed

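RNA from hearts was sequenced in 1 library per genotype; RNeasy isolation and Illumina TruSeq libraries are named, per the labels' protocols. TopHat, DESeq and the build Zv9 are named without versions, per the submitters' processing notes. The labels do not state the counting tool or how it used strand and multiply matching reads, which leaves antisense and overlapping genes uncertain. The deposited count table holds raw counts of Ensembl genes. Its line for reads outside genes took 9.17% of the total in the library labelled mutant and 9.21% in that labelled wild type and was left out. The authors' deposited comparisons give a fold, a log2 fold and DESeq p-values for Ensembl genes, per the file headers, and a fold and log2 fold for UniGene clusters. A further 7 columns of values have names that match no label and were left unused. Columns were assigned to libraries by their genotype abbreviations.

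TMM factors (edgeR 4.0.16, R 4.3.3) over genes with at least 10 counts gave effective sizes of 140343348 (mutant) and 148672835 (wild type). Ratios carry exact 95% Clopper-Pearson intervals, and quotients of ratios carry exact conditional intervals (scipy 1.17.1). Log2 ratios used 0.5 added to each count. No test was run. Alternatives were DESeq2 1.42.0 size factors, upper-quartile factors, library totals, a scaling to cardiac sarcomere genes, fold limits of 1.25 and 2, count minimums of 0 and 50, and the authors' folds. In simulated counts for this pair of libraries, over 24008 tested genes, 76% of genes raised 2-fold and 96% of those raised 4-fold were called higher, and calls of lower took in 74% of genes set to 0.5 and 90% of those set to 0.25 of their level. A further 11 genes with no change set were called. The simulation drew Poisson counts, which hold counting error alone. It therefore does not measure how often differences between animals, dissections or library preparations lead to a call.

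The members and the 14 further lists were chosen with earlier results of these data known. Of 243 list entries 234 matched, giving 217 distinct genes, since some stand in several lists. Named genes are all members, kctd10, called other T-box genes, for each list up to 3 called genes per direction and the most counted one, and the 3 list genes nearest tbx5a. nkx2.5, nkx2.7, hey2, hand2, bmp4, has2, foxn4, msx2b, twist1a, fgf8a, gja5b, ttna, ttnb, tbx4, tbx18, ntlb, ddx54, myl7 and tbx3b were added after their values were seen. Most counted and called genes of some tissue lists are not each described. A gene that the rule names is not reported here. Promoter and protein sequences were not analysed here.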

Additional observations from a re-analysis of the deposited data

How the results depend on the processing

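No paired analysis was possible because each genotype has 1 library, and for the same reason no library could be left out. DESeq2 size factors, upper-quartile factors and the authors' UniGene folds kept each of the 7 cardiac T-box genes on its side of 1. Both sets of factors also kept each gene on its side of the rule. Count minimums cannot alter the ratios of genes with this many counts. The authors' Ensembl folds equal the ratios by DESeq2 size factors (1.68 for tbx5a in both), so they are no separate check. With no minimum count ntlb was called lower, so that 3 other T-box genes were. Scaled to library totals, the ratio of tbx20 was 1.54 and 2 of the 7 genes were called higher, beside 1536 of all 24009 genes. Under the cardiac sarcomere scaling the ratio of tbx5a was 1.28 and 0 genes were called higher, tbx2a and tbx2b turned to 0.851 and 0.823, and 14 list genes were called higher and 74 lower, against 35 and 47. That scaling left 666 higher and 4595 lower of all genes (12.7% higher among those called), against 1447 and 1600 (47.5%). The lower fold limit called 4 of the 7 T-box genes and 65 list genes higher, beside 2894 of all 24009 genes. A limit of 2 called 0 and 13 higher, beside 635 of all genes. The cause of the shift of cardiac sarcomere genes was not tested. Depth limits tbx3b and ntlb, while counting intervals of the 7 genes were narrow and leave differences between animals, dissection and library preparation unmeasured.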
